A study of Mus musculus with 15 samples.

Results

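The immediate early transcription factors Fos, Fosb, Fosl1, Fosl2, Jun, Junb, Jund, Egr1, Ier2 and Atf3 were followed by polyA RNA sequencing in mouse embryonic fibroblasts (MEFs). The 10 genes were taken by symbol from a table of 54495 genes, each symbol matched 1 row, and all 10 were among the 13562 genes with enough signal to be tested. MEFs were taken from embryos of day 13.5 and grown at 37 °C under 3% O2 and 5% CO2 in DMEM that held 10% fetal bovine serum, and the labels name no starvation, stimulation or time after serum. Every library was mTR-/- (no RNA template of telomerase) and Wrn-/- (no Werner syndrome helicase), controls included. Cells called DM carried wild-type p53, and cells called TM carried p53 N236S on both alleles. G1, G3 and G5 are generations 1, 3 and 5. The groups G1DM, G1TM and G3DM had 2 libraries apiece, and the groups G3TM, G5DM and G5TM had 3. The labels do not say whether replicates came from separate embryos, and p-values measure only the spread between these libraries. By Xist and Y-linked genes, G1DM, G5DM and G5TM hold libraries of both sexes and so more than 1 embryo. In the other groups the spread may be technical.

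Immediate early genes are transcribed within minutes of a growth or stress signal without new protein synthesis, largely through MAP kinases acting on serum response factor, its ELK partners and CREB or ATF factors. Fos and Jun proteins dimerise to form AP-1, which binds the TPA response element TGAGTCA and, with ATF partners, the cAMP response element TGACGTCA. In cultured fibroblasts Fos and Egr1 transcripts are known for short bursts after serum, whereas Fosl1, Fosl2 and Jund are known for slower or steadier expression.

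Fos had its highest mean in G1DM, and Jun, Junb and Atf3 had higher means in TM than in DM in G3 and G5. Promoters of these 4 genes, which illustrate the contrasts described below, are shown first. Each is the 250 bases before the RefSeq start on the strand of the gene (build GRCm38.p6), 5′ to 3′, at chr12:85473640-85473889 (Fos, plus strand), chr4:95052223-95052472 (Jun, minus), chr8:84978749-84978998 (Junb, minus) and chr1:191183334-191183583 (Atf3, minus). Capitals mark TGACG, the core of the cAMP response element, in Fos and Junb, and the variant elements TGACATCA in Jun and TTACGTCA in Atf3.
Fos promoter: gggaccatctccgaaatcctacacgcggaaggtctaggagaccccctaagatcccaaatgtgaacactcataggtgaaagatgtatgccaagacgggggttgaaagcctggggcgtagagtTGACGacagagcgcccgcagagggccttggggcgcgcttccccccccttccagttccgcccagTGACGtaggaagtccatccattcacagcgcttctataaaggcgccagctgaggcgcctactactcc
Jun promoter: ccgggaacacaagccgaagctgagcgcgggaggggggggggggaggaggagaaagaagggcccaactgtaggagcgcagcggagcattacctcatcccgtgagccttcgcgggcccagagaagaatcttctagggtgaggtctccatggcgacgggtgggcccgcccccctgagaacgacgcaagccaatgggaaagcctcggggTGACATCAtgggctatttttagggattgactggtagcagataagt
Junb promoter: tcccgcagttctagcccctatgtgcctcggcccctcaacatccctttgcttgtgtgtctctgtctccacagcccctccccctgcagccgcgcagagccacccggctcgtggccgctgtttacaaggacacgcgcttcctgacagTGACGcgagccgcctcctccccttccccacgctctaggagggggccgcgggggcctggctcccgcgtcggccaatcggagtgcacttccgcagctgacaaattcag
Atf3 promoter: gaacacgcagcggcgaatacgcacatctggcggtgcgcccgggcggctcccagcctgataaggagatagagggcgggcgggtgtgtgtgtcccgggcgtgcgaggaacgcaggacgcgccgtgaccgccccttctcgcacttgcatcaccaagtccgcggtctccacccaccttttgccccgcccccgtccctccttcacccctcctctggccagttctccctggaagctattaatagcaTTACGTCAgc
Both strands of this window were searched in 7 members (Fos, Fosb, Fosl2, Jun, Junb, Jund and Atf3). TGACG began 129 and 66 bases before the start of Fos, 60 before Fosb and 106 before Junb, and its complement lay within the Atf3 variant. It occurred in 17.8% of 32851 promoters of the same length. TGACATCA began 45 bases before the start of Jun (2.93% of promoters), and TTACGTCA began 10 bases before the start of Atf3 (0.447%). The full elements TGACGTCA (1.55%) and TGAGTCA (4.46%) and the CArG box bound by serum response factor (1.47%) matched 0 of the 7. The TATA box letters TATAAA began 33 bases before the Fos start (12.4% of promoters). These matches describe letters in the window only. Sites further upstream were not looked for, and the promoters of Fosl1, Egr1 and Ier2 were not searched. The RefSeq starts of Fos and Jun are those of the deposited table. The starts of Fosb, Fosl2 and Atf3 lie inside the deposited gene interval, and those of Junb and Jund lie upstream of it, so for these 5 the windows are placed by RefSeq alone.

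The libraries held 17448588 to 29571111 recovered reads each and 19758 to 25789 genes above 0 FPKM (fragments per kilobase, scaled to library size). Cdkn1a, a p53 target that checks the p53 label, ranged from 86.2 to 216 FPKM in the 7 DM libraries and from 4.22 to 29.6 in the 8 TM libraries. The G3TM and G5TM libraries, 6 in all, stood apart from the remaining 9. The ribosomal protein gene Rpl12 spanned 300 to 610 FPKM there, against 3.84 to 6.77 in the 9, and the mitochondrial mRNA mt-Co1 spanned 839 to 1692 against 3873 to 4916. All 6 are TM, so in G3 and G5 genotype and this division cannot be told apart. In G3, both DM libraries expressed Xist (3.04 to 3.36 FPKM) and the 3 TM libraries expressed Y-linked genes (summed 2.40 to 4.52 FPKM), so in that generation the sex of the embryo and the genotype cannot be told apart either. Fibroblast markers were present in every library (12 of 12, summed 2764 to 4921 FPKM), although Dcn and Lum, collagen-binding matrix proteins, were below 2 FPKM in the 6 (Dcn 0.838 to 1.85, Lum 0.914 to 1.85) and above 5 in the 9. The summed neural markers (3 of 8 reached 1 FPKM) reached 95.2 to 286 FPKM in the 6 libraries and 38.4 to 96.5 in the 9, and the epithelial markers (4 of 8) 39.3 to 118 and 9.91 to 76.1. Macrophage markers (7 of 10) spanned 5.52 to 372 in the 6 and 6.64 to 79.4 in the 9, and skeletal muscle markers (8 of 11) 30.9 to 267 and 37.5 to 339. Smooth muscle markers (6 of 7) spanned 983 to 3501 and 1211 to 3701, and endothelial markers (5 of 8) 2.27 to 6.37 and 5.41 to 10.7. Erythroid markers stayed at or below 0.490 FPKM in all libraries, with Hbb-bs and Hba-a2 at 0. The part of these cell types in the results below was not tested, and in bulk RNA fewer cells of a type cannot be told apart from less RNA per cell.

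Among the 4 Fos family genes, Fosl1 was highest in the G3TM and G5TM libraries, Fos had its highest mean in G1DM, and Fosl2 varied least between groups. In G3 and G5, genotype cannot be told apart from the division of libraries described above. Fosl1 (ENSMUSG00000024912, chromosome 19, 5447703 to 5455945) encodes Fra-1, an AP-1 subunit that is itself a known AP-1 target. In G1DM it measured 7.37 and 30.8 FPKM, in G1TM 24.0 and 33.2, and in G3DM 22.5 and 30.4. In G3TM it was 71.5, 64.5 and 97.6, in G5DM 28.4, 14.7 and 10.6, and in G5TM 79.1, 36.5 and 104. Each G3TM and G5TM library lay above each of the other 9, while the 4 lower groups overlapped one another.

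Fos (ENSMUSG00000021250, chromosome 12, 85473890 to 85477273), the classical serum-induced subunit, was low everywhere. In G1DM it measured 13.2 and 6.67 FPKM, in G1TM 2.45 and 5.05, in G3DM 4.48 and 3.54, and in G3TM 5.07, 1.42 and 2.60. In G5DM it was 2.38, 2.71 and 2.29, and in G5TM 2.24, 3.70 and 2.28. The G1DM range did not overlap that of G3DM, the next group by mean, and every pair of neighbours below it overlapped. Fos rested on 49 to 726 reads per library.

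Fosb (ENSMUSG00000003545, chromosome 7, 19302696 to 19310051), a subunit known from neurons and stimulated cells, stayed at 0.297 to 0.847 FPKM outside G3DM, where it was 1.40 and 1.11. It reached 1 FPKM only in those 2 libraries and so entered the test through G3DM, and its differences from G3DM therefore support nothing. Fosl2 (ENSMUSG00000029135, chromosome 5, 32135801 to 32157842), which encodes Fra-2, spanned 20.8 to 40.0 FPKM over the 15 libraries. Its lowest group was G5DM, with 23.1, 26.9 and 20.8, below every library of G1TM, the neighbour above it (28.5 and 27.7).

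In the Jun family, Junb and Jun were higher in every G3TM and G5TM library than in any other, while Jund overlapped between all neighbouring groups. Junb (ENSMUSG00000052837, chromosome 8, 84974484 to 84978718) encodes an AP-1 subunit that can restrain Jun and is known as an early serum response gene. In G1DM it measured 28.4 and 29.4 FPKM, in G1TM 16.6 and 30.1, and in G3DM 36.4 and 35.2. In G3TM it was 111, 116 and 129, in G5DM 18.3, 17.7 and 9.72, and in G5TM 71.1, 72.1 and 126. The lowest of the 6 late-generation TM libraries was thus above the highest of the other 9, and G5DM replicate 3 was the lowest of all.

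Jun (ENSMUSG00000052684, chromosome 4, 95049034 to 95052222), encodes the main partner of Fos. Its G1DM libraries held 40.5 and 60.7 FPKM, those of G1TM 53.5 and 73.3, and those of G3DM 60.8 and 70.3. In G3TM it was 119, 88.0 and 113, in G5DM 56.7, 37.1 and 35.7, and in G5TM 109, 88.9 and 98.0. G3TM and G5TM overlapped each other and lay above G3DM. Jund (ENSMUSG00000071076, chromosome 8, 70698949 to 70700616), encodes a subunit known for slowing fibroblast growth. Its G1DM libraries held 25.5 and 18.3 FPKM, those of G1TM 16.7 and 21.1, those of G3DM 43.3 and 28.5, and those of G3TM 28.1, 58.1 and 39.4. It was 32.3, 18.5 and 18.3 in G5DM and 37.9, 51.8 and 31.7 in G5TM.

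Egr1 (ENSMUSG00000038418, chromosome 18, 34859823 to 34864984), a zinc finger factor induced by serum, varied widely within groups. In G1DM it measured 63.1 and 43.2 FPKM, in G1TM 14.0 and 39.8, and in G3DM 10.8 and 12.3. In G3TM it was 53.7, 11.9 and 13.0, in G5DM 15.2, 4.97 and 9.04, and in G5TM 10.1, 25.1 and 13.4. G3TM replicate 1 stood far above the other two of its group, and G1DM lay above every library of G1TM, G3DM, G5DM and G5TM but not above G3TM replicate 1.

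Ier2 (ENSMUSG00000053560, chromosome 8, 84661331 to 84662852), a small nuclear regulator of transcription induced by serum, had 41.1 and 34.9 FPKM in its G1DM libraries, 20.0 and 36.9 in those of G1TM, and 33.6 and 27.6 in those of G3DM. In G3TM it was 58.2, 54.5 and 70.1, in G5DM 27.5, 9.74 and 10.4, and in G5TM 55.9, 53.9 and 58.0. The G5TM libraries were close together, and G5DM replicate 1 stood above its group. Atf3 (ENSMUSG00000026628, chromosome 1, 191170296 to 191218039), a stress-induced factor of the ATF family, had 1.52 and 1.68 FPKM in its G1DM libraries, 0.994 and 1.64 in those of G1TM, and 1.45 and 1.61 in those of G3DM. It was 3.55, 5.20 and 3.88 in G3TM, 2.16, 0.836 and 0.774 in G5DM, and 1.93, 2.71 and 2.60 in G5TM. G3TM was the only group whose range lay wholly above all the others, on 39 to 201 reads per library over the 15.

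**Figure D1:**
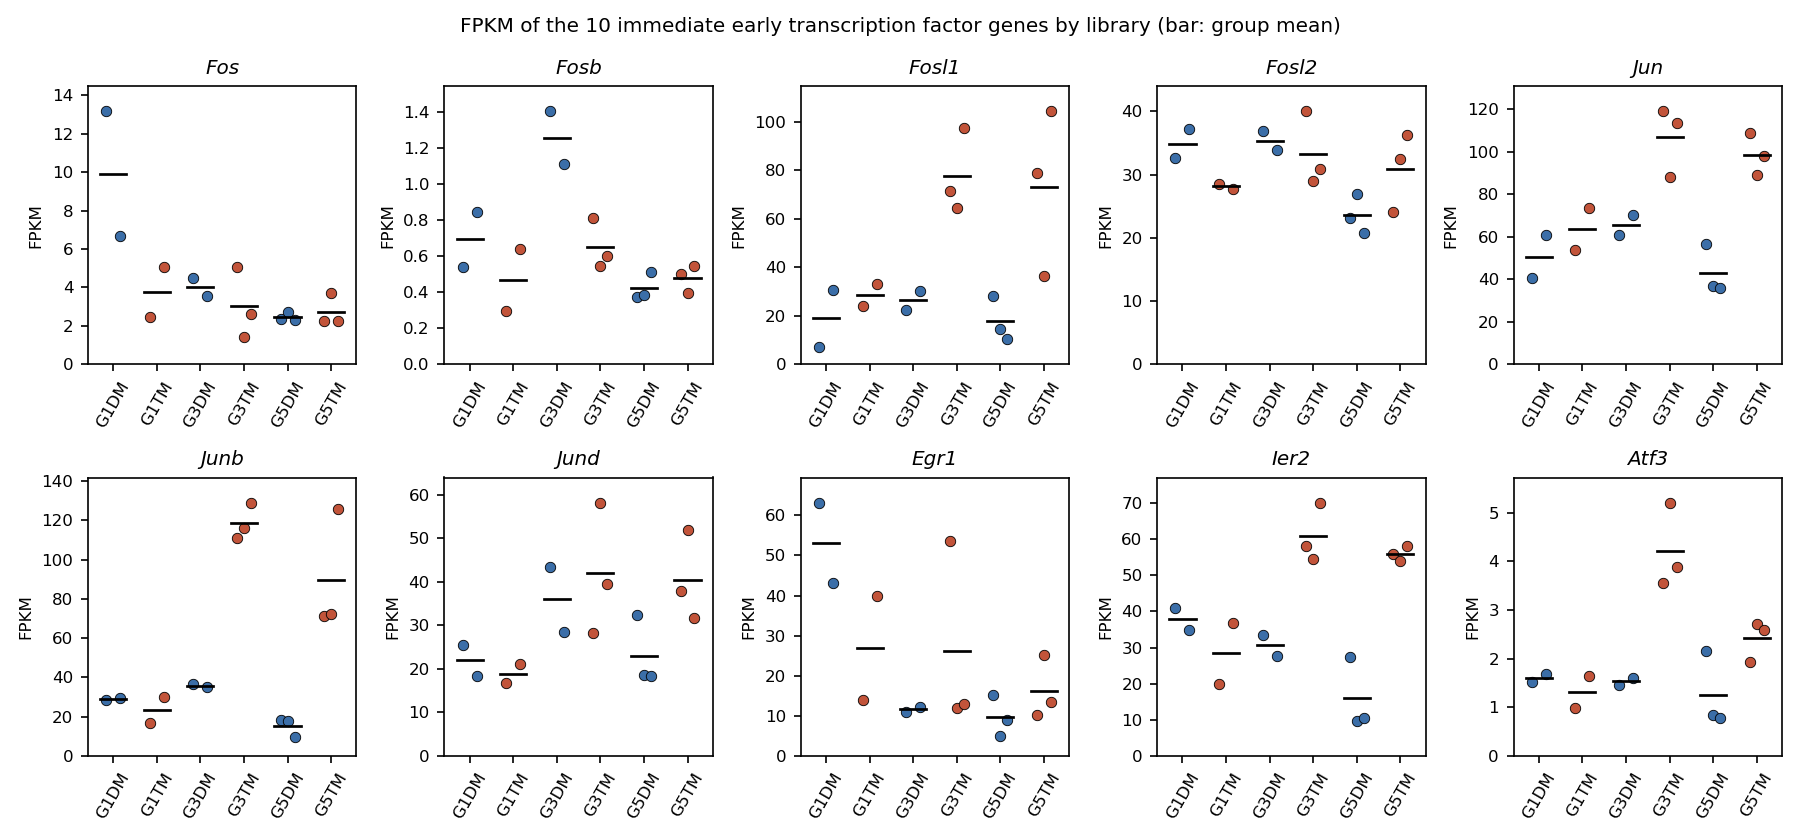
FPKM of each of the 10 genes (y axis of each panel, linear, from 0) in the 15 libraries, by group on the x axis; blue points are DM, red points TM, and bars are group means. Fosl1, Jun, Junb and Ier2 are higher in all G3TM and G5TM libraries than in the other 9, while Fos and Egr1 have their highest means in G1DM.

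TM was compared with DM within each generation by a limma fit of log2(FPKM + 1) over all tested genes. P-values were adjusted after Benjamini and Hochberg, and a gene was called at an adjusted p under 0.05. In G1, 0 of the 10 genes were called, against 1.17% of all tested genes. An unadjusted p under 0.05 was reached by 1696 of the 13562 tested genes and by 1 of the 10. That gene was Fos, with means of 9.92 ± 4.6 FPKM (DM) and 3.75 ± 1.8 (TM; SD, n = 2 each) and a limma log2 difference of −1.19 ± 0.40 (SE; adjusted p = 0.185). Egr1 had means of 53.2 ± 14 and 26.9 ± 18 FPKM (log2 −1.11 ± 0.68, adjusted p = 0.587). Neither passed the test, and only Fosl1 and Jun had positive differences. The median over the 10 was −0.25, and over all tested genes 0.02.

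In G3, Junb, Atf3 and Fosl1 were higher in TM, 3 of 10 members where 18.0% of tested genes were higher and 32.0% were called in either direction. Junb rose from 35.8 ± 0.83 FPKM in DM to 119 ± 9.3 in TM (SD, n = 2 and 3), or by log2 1.70 ± 0.32 (SE; limma adjusted p = 0.00186). Atf3 rose from 1.53 ± 0.11 to 4.21 ± 0.88 FPKM (log2 1.03 ± 0.25, adjusted p = 0.00743), and Fosl1 from 26.5 ± 5.6 to 77.8 ± 17 (log2 1.51 ± 0.54, adjusted p = 0.0476). In all 3 the TM range lay above the DM range, as it did for 31.6% of tested genes. Ier2 (log2 0.97 ± 0.36, adjusted p = 0.0549) and Jun (0.69 ± 0.26, adjusted p = 0.0566) missed the threshold. The Fosl1 call ended in 15 of 26 alternatives, among them a fit with the replicate number as a block (adjusted p = 0.1), leaving out either G3DM library (0.218 and 0.131), any of the G3TM libraries (0.0634, 0.0747 and 0.133), either G1TM library (0.0589 each), G5DM replicate 2 (0.0584) or G5TM replicate 1 (0.0606). Atf3 lost its call without G3DM replicate 1 (adjusted p = 0.0552) or 2 (0.0522), while Junb kept its call in all 26. Of the cell type markers, 2 of 3 neural, 3 of 8 skeletal muscle and 1 of 6 macrophage genes also rose in G3TM. Another 1 of 8 skeletal muscle genes fell, as did 3 of 5 endothelial, 2 of 6 smooth muscle and 2 of 12 fibroblast genes. Within G3TM the muscle gene Myog spanned 0.737 to 61.6 FPKM and Myod1 0.184 to 21.8. The part of these markers in the differences of the members was not tested.

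In G5, 6 of the 10 were higher in TM and 0 lower, in a comparison where 30.3% of tested genes were higher and 58.7% were called. Junb rose 5.88-fold on group means, from 15.3 ± 4.8 to 89.7 ± 31 FPKM (SD, n = 3 each; log2 2.48 ± 0.28, SE, adjusted p = 3.36e-05, limma). Ier2 rose 3.52-fold, from 15.9 ± 10 to 56.0 ± 2.1 FPKM (log2 1.91 ± 0.32, adjusted p = 0.000396). Jun rose 2.28-fold, from 43.2 ± 12 to 98.5 ± 9.8 FPKM (log2 1.20 ± 0.23, adjusted p = 0.00089). Fosl1 rose 4.1-fold, from 17.9 ± 9.3 to 73.3 ± 34 FPKM (log2 1.96 ± 0.48, adjusted p = 0.00421). In these 4 the TM range lay above the DM range, as it did for 29.6% of tested genes. In the same comparison 3 of 4 epithelial markers rose (median log2 2.18, summed 9.91 to 12.2 FPKM in G5DM and 39.3 to 92.1 in G5TM), as did 2 of 3 neural markers. Those that fell were 3 of 5 endothelial, 6 of 12 fibroblast, 2 of 6 smooth muscle and 1 of 8 skeletal muscle markers. The part of all these markers in the differences of the members was not tested.

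Jund, from 23.0 ± 8.0 to 40.5 ± 10 FPKM (log2 0.81 ± 0.30, adjusted p = 0.0344), and Atf3, from 1.26 ± 0.78 to 2.41 ± 0.42 (log2 0.64 ± 0.22, adjusted p = 0.0237), also rose in G5 but overlapped by 1 library of G5DM, replicate 1. Jund lost its call without G5DM replicate 2 (adjusted p = 0.119) or 3 (0.116) or G5TM replicate 1 (0.0656) or 2 (0.127), and with TPM scaling (0.413), quantile normalization (0.277), no filter (0.0769) or a fit of the compared groups alone (0.0519). Atf3 lost it without G5DM replicate 2 (0.0996) or 3 (0.102) or G5TM replicate 2 (0.0697) or 3 (0.0676), and with TPM scaling (0.2), no filter (0.0564) or the compared groups alone (0.0711). Fos had nearly the same mean in both genotypes, 2.46 ± 0.22 and 2.74 ± 0.83 FPKM (log2 0.09 ± 0.32, adjusted p = 0.82), and Egr1 9.73 ± 5.1 and 16.2 ± 7.9 (0.70 ± 0.55, adjusted p = 0.287). The median difference was 0.75 over the 10 and 0.02 over all tested genes.

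**Figure D2:**
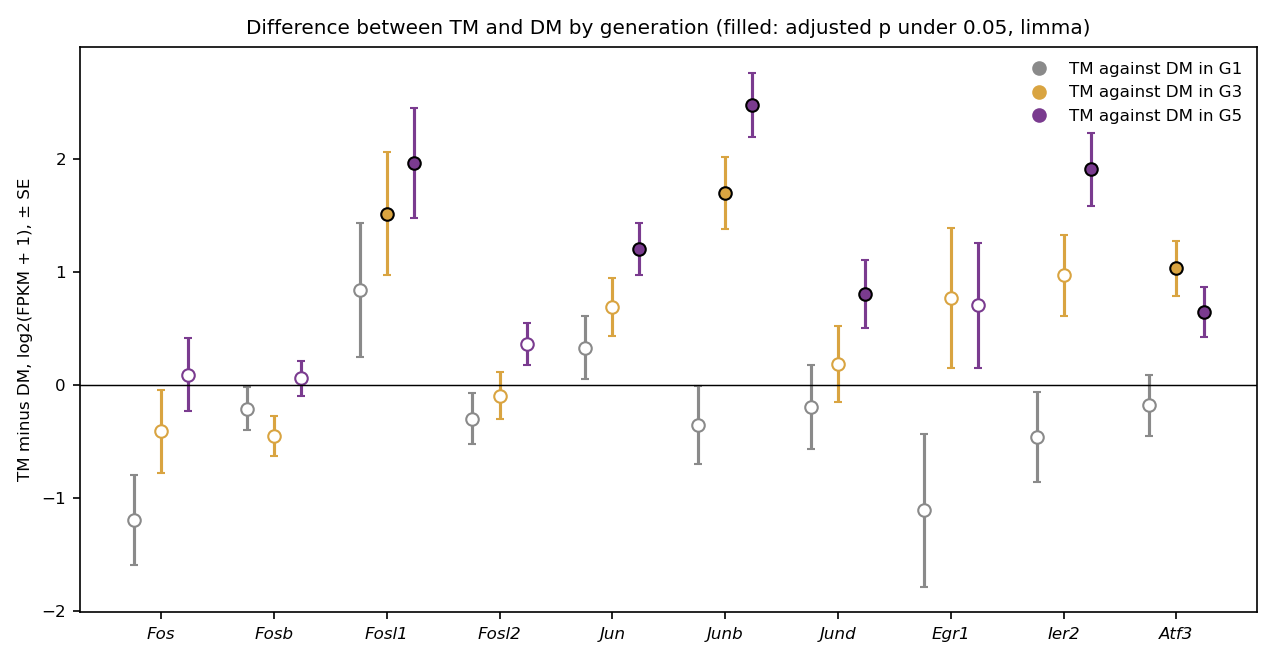
TM minus DM on the log2(FPKM + 1) scale (y axis) for each of the 10 genes (x axis) in G1 (grey), G3 (yellow) and G5 (purple); bars are standard errors from limma and filled points have an adjusted p under 0.05. In G1 no point is filled, in G3 Fosl1, Junb and Atf3 are, and in G5 Fosl1, Jun, Junb, Jund, Ier2 and Atf3 are.

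The difference between genotypes was itself compared between generations. For Junb, TM minus DM was larger in G3 than in G1 by 2.05 ± 0.47 log2 units (SE; limma adjusted p = 0.0386), the only call among the 10 where 1.53% of tested genes were higher and 2.42% called, and larger in G5 than in G1 by 2.83 ± 0.45 (adjusted p = 0.00237). Ier2 was the other member with a larger difference in G5 than in G1 (2.37 ± 0.51, adjusted p = 0.0108), making 2 of 10 where 11.5% of tested genes were higher and 19.8% called. Between G5 and G3, 0 of 10 were called by limma (0.236% of tested genes). An unadjusted p under 0.05 was reached by 1911 of the 13562 tested genes and by 1 of the 10. That member was Fosb, which had entered the test only through G3DM, so it supports nothing here. The Junb call between G3 and G1 ended in 12 alternatives, including leaving out either G1DM library (0.109 and 0.107), G1TM replicate 1 (0.207), either G3DM library (0.126 and 0.159) or G3TM replicate 2 (0.08) or 3 (0.0892). The Ier2 call ended without G1TM replicate 1 (0.0698), and without G5DM replicate 1 the same comparison of G5 with G1 also called Jun (0.0186), Jund (0.0376) and Atf3 (0.00676).

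Across generations of DM, where all libraries belong to the 9 that resembled each other, few differences passed the test. From G1DM to G5DM the median log2 difference was −0.40 over the 10 and 0.01 over all tested genes. Jund (0.04) and Fosl1 (0.10) had positive differences. From G1 to G3, 0 of 10 were called (0.214% of tested genes). An unadjusted limma p under 0.05 was reached by 3 of 10, beside 2784 of the 13562 tested genes. Fosb was among the 3 and had entered the test only through G3DM, so it supports nothing here. From G1 to G5 again 0 of 10 were called (0.0590%), and 5 of 10 passed unadjusted, beside 689 of the 13562 tested genes. Egr1 had the largest of these differences, 53.2 ± 14 FPKM in G1DM (SD, n = 2), 11.6 ± 1.0 in G3DM (n = 2; log2 −2.08 ± 0.68, SE, adjusted p = 0.122, limma) and 9.73 ± 5.1 in G5DM (n = 3; −2.43 ± 0.62, adjusted p = 0.298). Fos measured 9.92 ± 4.6, 4.01 ± 0.66 and 2.46 ± 0.22 (−1.06 ± 0.40, adjusted p = 0.158, and −1.59 ± 0.36, adjusted p = 0.189). Ier2 was called as lower in G5DM than in G1DM without G5DM replicate 1 (adjusted p = 0.0103), but not with it (0.353).

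From G3DM to G5DM, Junb fell from 35.8 ± 0.83 to 15.3 ± 4.8 FPKM (log2 −1.23 ± 0.32, adjusted p = 0.0438, limma), 1 of the 9 members other than Fosb, where 1.64% of tested genes were lower and 4.98% called. Fosb passed the same threshold but had entered the test only through G3DM, and it is not counted. The 9 all had lower means in G5DM, and the median log2 difference was −0.63 over the 10, Fosb included, and −0.09 over all tested genes. In the same comparison 4 of 4 epithelial markers fell (median log2 −2.14, summed 55.6 to 76.1 FPKM in G3DM and 9.91 to 12.2 in G5DM), as did 2 of 5 endothelial and 1 of 8 skeletal muscle markers. Their part in the Junb difference was not tested. The Junb call ended in 16 of 27 alternatives, among them a fit of the 9 libraries alone (adjusted p = 0.115) and fits without either G3DM library (0.315 and 0.189), G5DM replicate 2 (0.123) or 3 (0.152), either G1DM library, G3TM replicate 2 or 3, or G5TM replicate 1 or 2 (0.0538 to 0.0591 for the last 3 groups). Without G5DM replicate 1 Ier2 (0.000954) and Jun (0.0264) were called as well.

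Across generations of TM, the calls were between G1TM and the later groups. G1TM belongs to the 9 libraries and G3TM and G5TM to the 6, so in TM generation and that division cannot be told apart. G1TM expressed Xist (18.1 to 26.9 FPKM) and G3TM expressed Y-linked genes (summed 2.40 to 4.52 FPKM). From G1TM to G3TM, sex and generation therefore cannot be told apart either. From G1TM to G3TM, 6 of 10 rose, where 25.2% of tested genes were higher and 46.8% called. Junb rose 5.08-fold (23.4 ± 9.6 to 119 ± 9.3 FPKM, SD, n = 2 and 3; log2 2.35 ± 0.32, SE, adjusted p = 0.000296, limma) and Atf3 3.2-fold (1.32 ± 0.46 to 4.21 ± 0.88 FPKM; 1.17 ± 0.25, adjusted p = 0.00335). The others were Ier2 (1.12 ± 0.36, adjusted p = 0.022), Jund (1.06 ± 0.34, adjusted p = 0.0216), Jun (0.75 ± 0.26, adjusted p = 0.0304) and Fosl1 (1.41 ± 0.54, adjusted p = 0.0472). G1TM replicate 1 was the lower library of its group for all members but Fosl2, and without it Junb alone was still called. In the same comparison 6 of 8 skeletal muscle, 3 of 4 epithelial, 2 of 3 neural and 2 of 6 smooth muscle markers rose. Of the fibroblast markers 5 of 12 fell and 1 rose, and 1 of 5 endothelial markers fell. Their part in these differences was not tested.

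From G1TM to G5TM, 3 of 10 rose, where 26.0% of tested genes were higher and 49.5% called: Junb (log2 1.90 ± 0.32, adjusted p = 0.000671, limma), Jund (1.04 ± 0.34, adjusted p = 0.0218) and Ier2 (1.01 ± 0.36, adjusted p = 0.0329). Jun (adjusted p = 0.0537), Atf3 (0.0719) and Fosl1 (0.0763) missed the threshold, and without G1TM replicate 1 only Junb was called. Between G3TM and G5TM, 0 of 10 were called by limma (0.0295% of tested genes). An unadjusted p under 0.05 was reached by 1 of 10, beside 381 of the 13562 tested genes. These comparisons share libraries with those of TM and DM above (G3TM or G5TM enter both), so their calls are not independent of them. From G1TM to G5TM, 2 of 4 epithelial and 2 of 3 neural markers rose. Of the fibroblast markers 8 of 12 fell and 1 rose, and 1 of 5 endothelial markers fell. Their part in the differences of the members was not tested.

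The make-up of each family followed these levels. Fosl1 made up 13.7 to 40.8% of the summed FPKM of the 4 Fos family genes in G1DM, 43.4 to 49.8% in G1TM, 34.5 to 44.1% in G3DM and 31.0 to 52.3% in G5DM. In G3TM its share was 60.9 to 74.1% and in G5TM 50.0 to 74.7%. Fosl2 had the largest share in 6 of the 7 DM libraries, 42.6 to 60.8% in G5DM, and 22.8 to 44.4% in G5TM. Fos supplied 24.5% of the family in G1DM replicate 1 and at most 8.84% in every other library. Junb made up 43.0 to 45.8% of the Jun family in G3TM and 32.7 to 49.2% in G5TM, against 15.2 to 24.2% in G5DM and at most 30.1% in the 9. The summed Jun family was 258 to 282 FPKM in G3TM, 213 to 256 in G5TM and 63.8 to 141 in the 9. FPKM is scaled by gene length but not by GC content, with which TM minus DM varied in G3 and G5, as described below. With the GC and length trend removed, TM minus DM in G5 went from 1.96 to 0.97 for Fosl1 and from 0.36 to 0.49 for Fosl2. It went from 2.48 to 1.41 for Junb and from 1.20 to 0.59 for Jun. How far the shares follow base composition was not tested, and they are given as a description with no test.

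**Figure D3:**
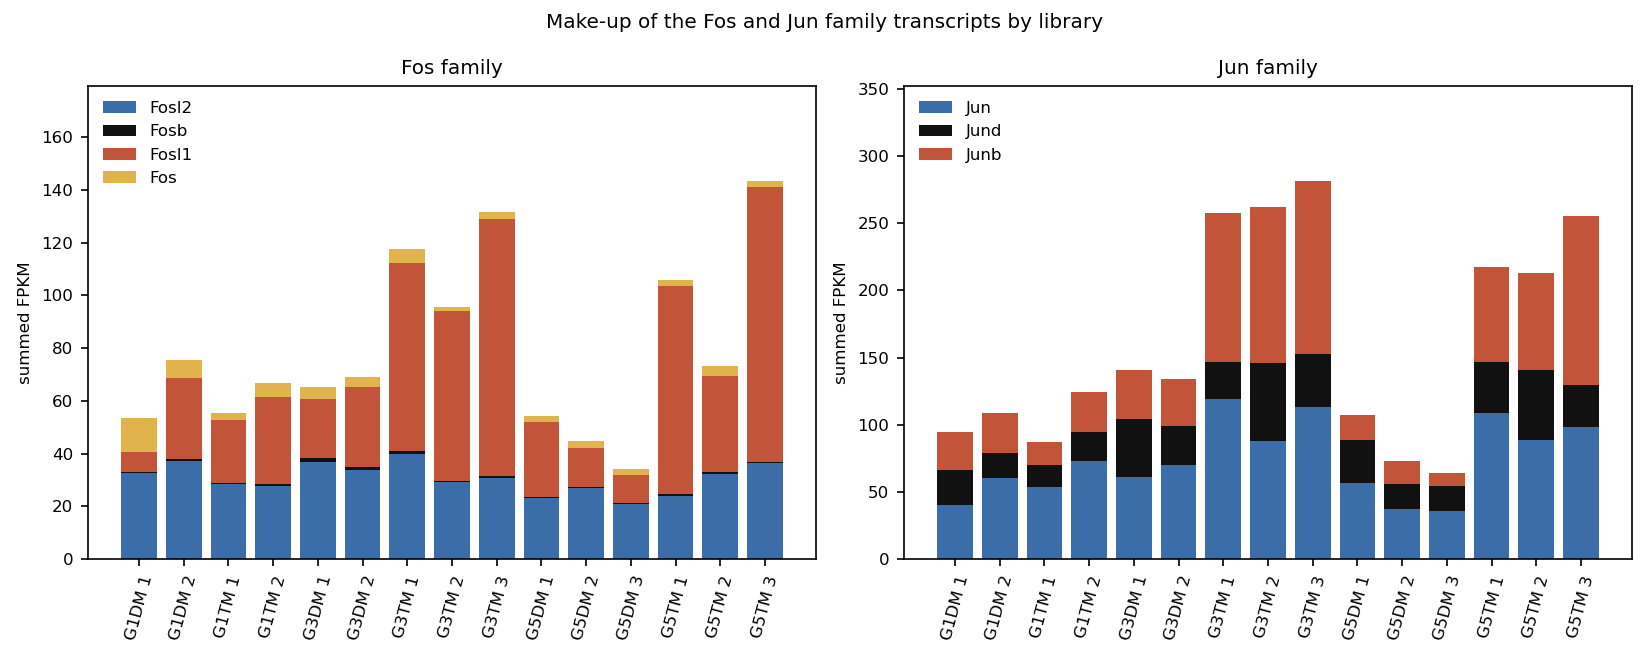
Summed FPKM (y axis, linear, from 0) of the Fos family (left) and the Jun family (right) in each of the 15 libraries (x axis), stacked by gene. The red segments, Fosl1 on the left and Junb on the right, are largest in the G3TM and G5TM libraries, where the summed Jun family lies at 213 to 282 FPKM against 63.8 to 141 in the others.

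The 4 genes with no overlap between the 6 late-generation TM libraries and the other 9 were Fosl1 (36.5 to 104 against 7.37 to 33.2 FPKM), Jun (88.0 to 119 against 35.7 to 73.3), Junb (71.1 to 129 against 9.72 to 36.4) and Ier2 (53.9 to 70.1 against 9.74 to 41.1). Such a split upward held for 17.1% of all tested genes, and downward for 9.63%. Atf3 overlapped through G5DM replicate 1 (1.93 to 5.20 against 0.774 to 2.16 FPKM), and Fos, Fosb, Fosl2, Jund and Egr1 overlapped as well.

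Transcript base composition moved with this division, and the members are rich in G and C. Their median GC content was 56.65%, against 49.9% for all tested genes. Their median length was 2326.5 bases against 3850.5, and 4 of 10 (Jun, Junb, Jund and Ier2) are single-exon genes against 15.6% of tested genes. In G5, the share of tested genes higher in TM went from 6.27% in the lowest 10% of genes by GC content to 61.1% in the highest 10%, and in G3 from 6.64% to 35.5%. In G1 it was 0% and 0.295%. Fosl1, Junb, Jund and Ier2 lie in the highest of these 10 classes, Fosb and Egr1 in the ninth (54.1% higher in G5), Jun in the eighth (44.2%) and Fos, Fosl2 and Atf3 in the seventh (37.5%).

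With a smooth trend of each library on GC content and length removed, a step chosen after the data were seen, TM minus DM in G5 stayed called for Junb (log2 1.41, adjusted p = 0.00066, limma), Ier2 (0.77, adjusted p = 0.0194) and Jun (0.59, adjusted p = 0.0433). Fosl2 became called (0.49, adjusted p = 0.0239), while Fosl1 (0.97, adjusted p = 0.0929) and Atf3 (0.10, adjusted p = 0.626) no longer passed and Jund changed sign (−0.48, adjusted p = 0.0914). In G3, Junb (1.06, adjusted p = 0.00987) and Atf3 (0.79, adjusted p = 0.00625) stayed called, and Fosl1 did not (0.94, adjusted p = 0.165). The larger Junb difference in G5 than in G1 held (1.69, adjusted p = 0.0193), and that of Ier2 did not (1.16, adjusted p = 0.0708). How much of each difference belongs to base composition was not tested.

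**Figure D4:**
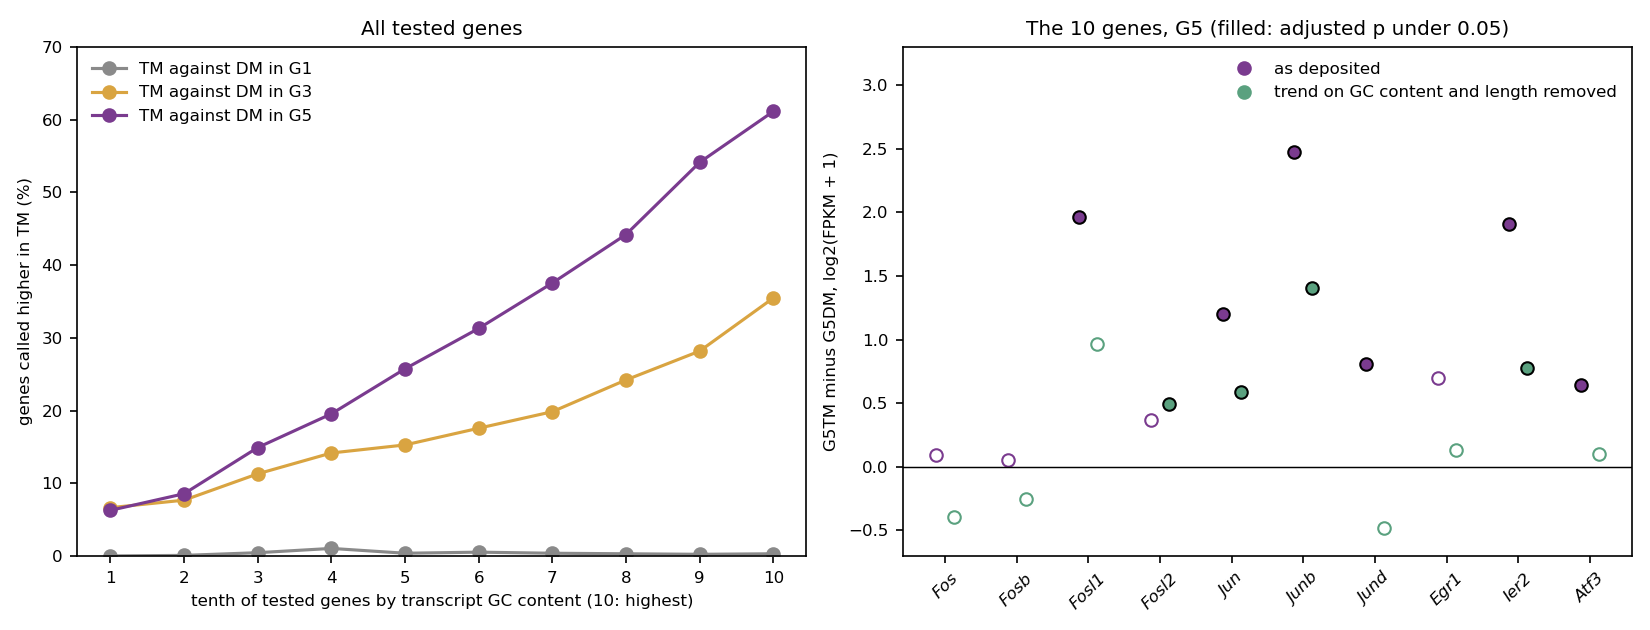
Left, share of tested genes called higher in TM (y axis, %) by transcript GC content in 10 classes of equal size (x axis) in G1 (grey), G3 (yellow) and G5 (purple); the share goes from 6.27 to 61.1% in G5. Right, TM minus DM in G5 for each of the 10 genes from the values as deposited (purple) and with the GC and length trend removed (green), with filled points at an adjusted p under 0.05; Junb, Jun and Ier2 are filled in both.

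Reads of neighbouring genes could enter 3 members, since the sources used here do not say whether counting used strand. Junb shares 173 of its 2301 exonic bases with Prdx2 on the other strand, a peroxidase gene at 111 to 210 FPKM in the 6 libraries and 47.2 to 91.1 in the 9. Jun shares 232 of 3189 bases with Junos (0.333 to 0.602 and 0.497 to 1.08 FPKM), and Jund shares 877 of 1668 with Gm11175, which was listed at 0 in every library. Over the stretch shared with Prdx2, reads may have been added to Junb or lost from it, and how far its values are affected was not tested.

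The rest of the pathway was followed with lists of known genes, whose counts are read against all tested genes: 18.0% rose and 13.9% fell in G3 (32.0% called), and 30.3% rose and 28.4% fell in G5 (58.7% called). Of 28 other immediate early genes, 27 were tested: in TM against DM, 0 rose and 1 fell in G1, 7 rose and 4 fell in G3, and 13 rose and 2 fell in G5 (limma, adjusted p under 0.05), with medians of −0.13, 0.21 and 0.75. The share called was 40.7% in G3 and 55.6% in G5, beside 32.0% and 58.7% of all tested genes, whose medians were 0.02, 0.01 and 0.02. The gene that fell in G1 was Btg2, an antiproliferative gene that is also a known p53 target. It measured 23.0 to 30.1 FPKM in G1DM and 2.58 to 3.48 in G1TM (log2 −2.77 ± 0.24, SE, adjusted p = 8.96e-05) and fell in G3 (−2.34 ± 0.22) and G5 (−1.90 ± 0.20) too. Klf2, a zinc finger factor, rose in G5 from 6.93 to 17.9 FPKM in DM to 37.9 to 43.8 in TM (log2 1.96 ± 0.31, adjusted p = 0.00025). The stress gene Gadd45b rose in G3 (1.70 ± 0.34, adjusted p = 0.00284) and G5 (1.92 ± 0.31, adjusted p = 0.000271).

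Of 12 tested dimer partners and competitors of AP-1, 3 rose and 1 fell in G3, 4 rose and 2 fell in G5 and 0 changed in G1 (medians 0.25, 0.23 and −0.05), so that 33.3% and 50.0% were called against 32.0% and 58.7% of all tested genes, and nothing is read from these counts. Cebpb, a leucine zipper factor of inflammation and fat cell differentiation, rose from 6.28 to 17.5 FPKM in G5DM to 61.9 to 92.9 in G5TM (log2 2.66 ± 0.30, SE, adjusted p = 2.83e-05, limma). Atf7 fell in G3 (−1.03 ± 0.21, adjusted p = 0.00287) and G5 (−1.06 ± 0.18, adjusted p = 0.000486), and its relative Atf2, which pairs with Jun, fell in G5 (−1.19 ± 0.26, adjusted p = 0.00213).

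Upstream kinases and transcription factors went both ways, called about as often as all tested genes (11 of 30 against 32.0% in G3, 18 of 30 against 58.7% in G5). Among the 30, 0 changed in G1, 5 rose and 6 fell in G3, and 6 rose and 12 fell in G5 (medians 0.12, −0.04 and −0.34). Hras, a GTPase at the head of the MAP kinase cascade, rose in G3 (log2 1.46 ± 0.44, SE, adjusted p = 0.0217, limma) and G5 (1.58 ± 0.39, adjusted p = 0.00418), as did the kinase gene Map2k2 (1.36 ± 0.36, adjusted p = 0.0127, and 1.81 ± 0.32, adjusted p = 0.000573). Elk4, a partner of serum response factor, fell in both (−1.17 ± 0.24, adjusted p = 0.00306, and −1.11 ± 0.21, adjusted p = 0.000837). Of the 14 feedback inhibitors of MAP kinase signalling, 2 rose and 4 fell in G3 and again in G5, and 0 changed in G1 (medians −0.30, −0.02 and 0.19), or 42.9% called in both. Dusp5, a nuclear phosphatase that inactivates ERK, rose in G3 (1.79 ± 0.47, adjusted p = 0.012) and G5 (2.13 ± 0.42, adjusted p = 0.00107), and Spry4, an inhibitor of receptor signalling, fell in G3 (−1.53 ± 0.30, adjusted p = 0.00268) and G5 (−0.81 ± 0.27, adjusted p = 0.0207).

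Of 19 tested genes commonly described as AP-1 targets, 0 changed between TM and DM in G1 (median −0.13), 0 rose and 7 fell in G3 (−0.65), and 3 rose and 6 fell in G5 (−0.46). The share called, 36.8% in G3 and 47.4% in G5, stood beside 32.0% and 58.7% of all tested genes. From G1TM to G3TM 4 rose and 2 fell (31.6% called), where 25.2% of all tested genes were higher and 46.8% called. From G1TM to G5TM 3 rose and 2 fell (26.3% called), where 26.0% of all tested genes were higher and 49.5% called. The medians were 0.17 and 0.20, beside 0.03 in both for all tested genes. The shares called lay below those of all tested genes, and nothing is read from these counts. Spp1, which encodes the matrix protein osteopontin, fell in G3 from 371 to 495 FPKM in DM to 52.9 to 73.0 in TM (log2 −2.71 ± 0.54, SE, adjusted p = 0.0028, limma) and in G5 (−2.05 ± 0.48, adjusted p = 0.00323). The matrix protease gene Mmp10 fell in G3 (−2.07 ± 0.44, adjusted p = 0.0041). Krt18, an epithelial keratin that is also on the epithelial marker list, rose in G5 (2.30 ± 0.51, adjusted p = 0.00212).

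Stress genes around Atf3 went both ways. Of 13 tested genes of the integrated stress response, 0 changed in G1, 2 rose and 1 fell in G3, and 2 rose and 2 fell in G5 (medians 0.16, 0.84 and 0.89), or 23.1% and 30.8% called, below the share of all tested genes. The pseudokinase gene Trib3 rose in G3 (log2 2.63 ± 0.87, SE, adjusted p = 0.0348, limma), the serine synthesis gene Psat1 rose in G3 (1.33 ± 0.36, adjusted p = 0.0138) and G5 (1.28 ± 0.32, adjusted p = 0.00465), and Sesn2, also a known p53 target, fell in G5 (−1.34 ± 0.34, adjusted p = 0.00519). Of 10 heat shock genes, 4 rose and 1 fell in G3, 4 rose and 0 fell in G5, and 0 changed in G1 (medians 0.44, 0.48 and 0.09). Hsp90aa1, a cytosolic chaperone, spanned 0.557 to 2.09 FPKM in the 9 libraries, against 40.4 to 73.2 in the 6, while Hspa1b, the stress-induced chaperone gene, fell in G3 (−1.20 ± 0.26, adjusted p = 0.0041).

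Within groups, some members varied together from library to library. Over the 15 libraries, Pearson's r of the deviations of log2(FPKM + 1) from the group means was 0.81 for Fosl1 with Jun, 0.77 for Fos with Egr1, 0.75 for Ier2 with Atf3 and 0.69 for Jund with Atf3, and it was lowest, −0.39, for Fos with Fosl1. Over all tested protein-coding genes, those most like Fos were Col5a2 (r = 0.84) and App (0.83), and those most like Egr1 were Slc35g1 (0.90) and Lrrc1 (0.88). Junb was most like Gab2 (0.91) and Kazn (0.86), and Atf3 most like Wnt9a (0.96) and Anxa11 (0.95). The libraries of a group share culture and processing, the deviations leave 9 degrees of freedom, and the highest of many correlations is high by selection, so these are descriptions only.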

How the data were processed

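The 10 members and the gene lists were chosen with earlier results of these data known. The authors deposited a single FPKM table, made from polyA libraries (NEBNext Ultra, TRIzol RNA, per the labels' protocols). Per the submitters' processing notes the tools included HISAT2 2.0.5, fastp, CASAVA 1.8, DESeq2 1.20.0 and featureCounts 1.5.0-p3, with no roles given. The genome build is not given in the sources used here. Coordinates are as the table lists them and equal those of the GRCm38 annotation GENCODE vM21 for 98.172% of 54495 identifiers. FPKM times gene length gave whole multiples of a step per library (tolerance 0.05), from which reads were recovered. The step of 1 read at a length of 1 kilobase was 0.0336 to 0.0679 FPKM, which limits precision for the lowest members.

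Genes that reached 1 FPKM in 2 or more of the 15 libraries were tested. In R 4.3.3, limma 3.58.1 fitted 6 group means to log2(FPKM + 1), with moderated variances (empirical Bayes) that follow an intensity trend. Tests were two-sided and Benjamini-Hochberg adjusted over 13562 genes. Differences on this scale understate changes of low genes. The script was tested on simulated data. GC content was available for 99.963% of tested genes, and its trend was a spline of 5 degrees of freedom. Promoters came from RefSeq (GRCm38.p6). Python 3.11.15, numpy 2.4.6, pandas 2.3.3 and matplotlib 3.10.9 were used.

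All members were named. From each other list up to 3 called genes with the largest differences could be named, and the 5 genes most correlated with each of Fos, Egr1, Junb and Atf3. Alternatives were other pseudocounts (0.1, 0.5), filters, scalings, fits of fewer libraries, a replicate block and leaving out each library. Wild-type and p53-mutant control fibroblasts named in the series design were not analysed here.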

Additional observations from a re-analysis of the deposited data

Results flagged for a closer look

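The difference between TM and DM was itself different between generations for 2 genes, by the interaction terms of the limma fit. For Junb, TM minus DM was larger in G3 than in G1 by 2.05 on the log2(FPKM + 1) scale and larger in G5 than in G1 by 2.83. For Ier2 it was larger in G5 than in G1 by 2.37. All 3 comparisons set libraries of the 6 that stood apart (G3TM or G5TM) against G1TM, which did not, and the part of that division was not tested. Within DM, log2 differences from G1 to G5 were −1.35 for Ier2 and −0.93 for Junb, and from G1 to G3 0.30 for Junb. Within TM, the same differences were 1.01, 1.90 and 2.35. The Junb call between G3 and G1 and the Ier2 call did not hold in every alternative.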

How the results depend on the processing

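Over 120 member differences, 3136 alternative values were computed. Of these 2961 kept direction and side of the threshold (or stayed uncalled, 85 of them with a change of sign), 134 lost a call, 36 gained one and 5 changed sign. The calls of Junb in G3 and G5, of Jun and Ier2 in G5, of Junb from G1TM to G3TM and of the larger Junb difference in G5 than in G1 held in every alternative run. The 5 changes of sign all came with the GC and length trend removed, a step that takes out what follows base composition: Jund was −0.48 for TM against DM in G5, −0.24 from G1TM to G3TM and −0.38 from G1TM to G5TM, and Ier2 was −0.0742 and −0.29 from G1TM to G3TM and to G5TM.

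Numbers of members called changed as follows, and the cause was not tested. TM against DM in G3 gave 3, and 5 with limma voom on recovered reads, a fit added after the data were seen. That fit added Ier2 as higher (log2 0.93) and Fosb as lower (−0.98). With TPM scaling or the GC trend removed, the 3 held Fosb as lower in place of Fosl1. Fosb entered the test only through G3DM, so these calls of it support nothing. In G5 it gave 6, 5 with a stricter filter or quantile normalization, and 4 with no filter, TPM scaling, the groups compared alone or the GC trend removed. G5 against G3 in DM gave 2, Fosb included. It gave 1 with a pseudocount of 0.1 or a stricter filter (FPKM of at least 5), which tested fewer members. It gave 0 with no filter, TPM scaling, the groups compared alone, the 9 libraries alone, the replicate block or the GC trend removed. G3 against G1 in TM gave 6, and 2 with no filter, TPM scaling, quantile normalization or the GC trend removed. G5 against G1 in TM gave 3, 1 with no filter, TPM scaling or quantile normalization, 6 with the groups compared alone, and 0 with the GC trend removed. The difference between G3 and G1 in TM minus DM gave 1, and 0 with no filter, TPM scaling, quantile normalization, the replicate block or the GC trend removed. That between G5 and G1 gave 2, and 1 with the GC trend removed.

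Leaving out each library in turn gave 0 to 0 members called for TM against DM in G1, 1 to 6 in G3 and 4 to 6 in G5. It gave 0 to 0 for G3 against G1, 0 to 1 for G5 against G1 and 0 to 4 for G5 against G3 in DM. The 6 for TM against DM in G3 and the 4 for G5 against G3 in DM include Fosb, which entered the test only through G3DM. In TM the same comparisons gave 1 to 6, 1 to 5 and 0 to 0. The differences between generations in TM minus DM gave 0 to 3 (G3 and G1), 1 to 5 (G5 and G1) and 0 to 1 (G5 and G3). Leaving out G5DM replicate 1 gave the higher end in comparisons with G3DM or G5DM in which the number changed, other than TM against DM in G5, and leaving out G1TM replicate 1 gave the lower end in those of G3TM or G5TM with G1TM.

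TPM scaling shifted the median of all genes in TM against DM to −0.31 in G3 and −0.50 in G5, and the called genes of G5 from 4114 higher and 3848 lower to 2425 and 5886 (G3: 2446 and 1890 to 1662 and 3045). Junb, Jun and Ier2 stayed called as higher in G5 under each scaling. Across all genes, TM against DM in G1 called 159, and 408 with quantile normalization, 423 with the GC trend removed and 95 with the replicate block.

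Deviations of 33 same-numbered pairs of libraries correlated at −0.54 to 0.38 (median −0.07), with 9 over 0.1. Those of 60 other pairs correlated at −0.49 to 0.54 (median 0.02), with 26 over 0.1. Deviations from a group mean cancel out, and in groups of 2 libraries they mirror each other. These correlations therefore cannot decide whether the replicate numbers pair the libraries. With the block, Fosl1 in G3 (adjusted p = 0.1) was among the calls lost. Planned count tests with edgeR and DESeq2 were not run, since the deposited unit is FPKM. Fosb (42 to 168 reads per library) and Atf3 (39 to 201) are limited by depth.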
